A study of Caenorhabditis elegans with 52 samples.

Results

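The genes described here encode 7 proteins of the germ granules of C. elegans: pgl-1, pgl-3, glh-1, glh-2, glh-4, deps-1 and prg-1. They were chosen by name as germline-expressed genes, from 19973 annotated protein-coding genes, and not by a rule on measured values. Earlier results of these data were known when the choice was made. All coordinates are on ce11, which is the WBcel235 assembly. prg-1 (I:7585329-7588367, - strand), glh-1 (I:6854478-6857536, +), glh-2 (I:6513928-6517507, +), glh-4 (I:3727027-3731179, +) and deps-1 (I:506473-509056, +) lie on chromosome I. pgl-3 lies on chromosome V (V:4755979-4758587, +). pgl-1 lies on chromosome IV (IV:6974441-6977318, -) inside the smaller of its piRNA gene clusters, 22682 bp from the end of that cluster, and is therefore left out of the medians of change, fuzziness and shift over the genes. No annotated piRNA gene falls between 1000 bp before and 500 bp after any of the 7 genes. They are 2584 to 4153 bp long with 7 to 12 exons, and each gene body held 12 to 24 nucleosome positions in every table.

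Germ granules, called P granules in C. elegans, are RNA-protein condensates that sit on the cytoplasmic face of the nuclear pores of germ cells. PGL-1 and PGL-3 are the scaffold proteins that build them. GLH-1, GLH-2 and GLH-4 are germline RNA helicases related to Vasa, and DEPS-1 is a P granule constituent needed for normal accumulation of the PGL proteins. PRG-1 is the Piwi Argonaute that carries piRNAs in these granules, where transcripts leaving the nucleus are surveyed. piRNAs themselves are transcribed from clusters on chromosome IV, and PRDE-1 belongs to the Upstream Sequence Transcription Complex that their transcription needs. ISW-1 is the catalytic subunit of ISWI, a remodeller that slides and spaces nucleosomes.

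Distances near a start are counted from the annotated 5′ end of each gene, so the reference sequence (WBcel235, RefSeq) at that point is shown for both PGL genes, with 15 bases before the start in lower case and the first 15 bases of the gene in capitals.
pgl-1 (chrIV:6977304-6977333, - strand): aattattaaaggcgcATGGAAGTTTCAGAT
pgl-3 (chrV:4755964-4755993, + strand): attttacacgtaaaaTTTCAGTGTTATTCG
The annotated pgl-1 start reads ATG, which was true of 1 of the 7 genes and of 24.1% of all protein-coding genes. Only these letters were read, so whether a gene has an annotated 5′ untranslated region was not checked. Many C. elegans transcripts are trans-spliced, and an annotated 5′ end can then lie downstream of the true transcription start.

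Nucleosomes were measured by native H3 ChIP-seq in isolated germ nuclei (IGN) of adult worms. Of 52 samples in 28 groups, 16 H3 samples in 8 groups of 2 gave the values used here. Wild type (VC2010) was compared with the prde-1 mutant SX2499, which carries prde-1(mj207) and was harvested 56 to 59 h after growth began, against 49 to 52 h for wild type. Auxin was compared with ethanol in strain YL701, whose worms were grown for 45 h and then kept for 3 h on 1 mM auxin or on ethanol. By their genotype label all YL701 worms, ethanol controls included, carry isw-1 tagged with eGFP and the auxin degron (ISW-1::eGFP::AID) and TIR1 driven by the germline mex-5 promoter (wrdSi51), so auxin acts in cells where that promoter is active. YL701 was not found in the strain list of the study's methods, so its genotype rests on the labels. SX2499 was backcrossed because this mutant becomes progressively sterile. Neither the prde-1 allele nor the loss of ISW-1 protein was checked here, since nucleosome values show neither. Each group was washed at low salt (150 mM NaCl) or at high salt (500 mM NaCl). Groups follow the sample titles. In the high-salt wild type and prde-1 samples the genotype field names the other genotype while the strain field follows the title, and an exchange would turn the high-salt prde-1 directions. The treatment field gives the other salt for high-salt ethanol and low-salt auxin. If that field were right, auxin and salt could not be told apart in either degron comparison, and the salt differences within ethanol and within auxin would not hold.

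The authors merged the 2 replicates of a group before nucleosomes were called. Each value below thus comes from 1 merged library, there is no spread between replicates, and no difference between libraries could be tested. Intervals are exact 95% binomial intervals of a median over the nucleosomes of 1 gene; they show how nucleosomes of that gene differ and are not an error between cultures. The 4 tables listed 541779 to 568635 nucleosomes with a mean summit occupancy of 168 to 178. Summit occupancy is the scaled H3 minus input signal at the dyad, the centre of a nucleosome. Between 18.0% and 24.2% of nucleosomes had a summit of 0, most often in auxin at low salt and least often in ethanol at low salt. The read number behind a value is unknown, and since every library was scaled to the same total, a loss of nucleosomes across the whole genome would not be seen. The comparison set was the 15312 protein-coding genes outside the piRNA clusters with at least 5 gene-body nucleosomes in every table.

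In both kinds of control worm the gene encoding the Piwi protein was the most densely occupied of the 7. The median summit over the prg-1 gene body was 372 in low-salt and 572 in high-salt wild type, and 205 and 286 in the corresponding prde-1 libraries. It was 349 in low-salt and 567 in high-salt ethanol, and 70.1 and 103 in the corresponding auxin libraries. The 4 control libraries were high and the 2 auxin libraries low, with prde-1 between them. In wild type at low salt the interval was 185 to 559, and prg-1 lay at the 99.2 percentile of the comparison set, whose median was 109.

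The scaffold genes differed from each other. pgl-1 had median summits of 301 in low-salt and 423 in high-salt wild type, and of 174 and 325 in prde-1. Its values were 201 and 398 with ethanol and 58.0 and 67.9 with auxin, low salt first. Both auxin values lay below every other value of the gene. pgl-3 was sparser, at 97.8 in low-salt and 177 in high-salt wild type and 50.7 and 279 in prde-1. In the degron strain pgl-3 had 142 and 88.1 with ethanol and 13.8 and 37.0 with auxin, again low salt first. pgl-3 was thus near the median of all genes in the controls at low salt, at the 43.4 percentile in wild type and the 65.8 percentile in ethanol, while pgl-1 was at the 97.4 and 86.9 percentiles.

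Among the helicase genes, glh-1 was the most occupied in 7 of the 8 libraries. Its median summits, low salt before high, were 229 and 353 in wild type, 175 and 321 in prde-1 and 253 and 401 with ethanol. With auxin the glh-1 median was 0 at low salt, where 10 of 19 positions had no signal, and 106 at high salt. In the same order glh-4 had 131 and 276 in wild type, 155 and 249 in prde-1, 141 and 130.2 with ethanol and 39.4 and 38.8 with auxin. glh-2 stayed close to the median of the comparison set in the controls, with 103 and 163 in wild type and 125 and 90.9 with ethanol. It had 89.1 and 103 in prde-1 and 1.90 and 47.0 with auxin. All 3 helicase genes therefore had their lowest values in the auxin libraries.

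The median summit of deps-1 was lower with auxin at low salt, as in the other genes, but not at high salt. Its median summits were 128 in low-salt and 177 in high-salt wild type and 165 and 246 in prde-1, so both prde-1 values were above wild type. The low-salt libraries had 88.7 with ethanol and 10.0 with auxin. The high-salt ones had 118.9 and 132, with overlapping intervals of 39.9 to 162 and 23.4 to 173.

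**Figure D1:**
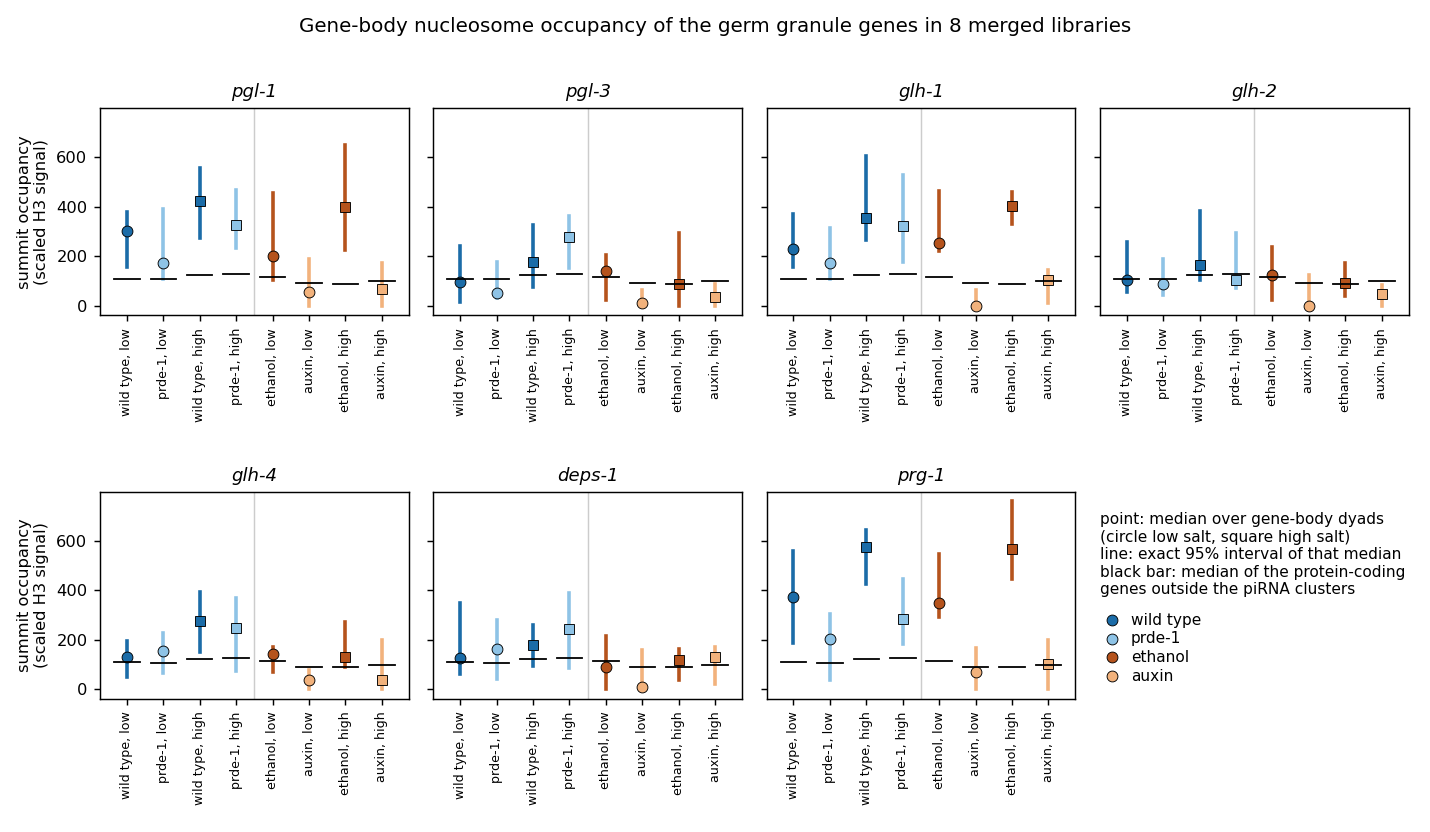
Median summit occupancy over the gene body (y axis, scaled H3 signal) of each of the 7 genes in the 8 merged libraries (x axis), with the exact 95% interval over the nucleosomes of the gene as a line and the median of the protein-coding genes outside the piRNA clusters as a black bar. prg-1, pgl-1 and glh-1 lie well above the bar in wild type and ethanol, and 0 of 7 genes lie above it with auxin at low salt.

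Levels across tables can be set side by side only relative to the other genes of the same library, because the tables were scaled separately. On this scale, the log2 of the gene's median over the median of the comparison set, prg-1 stood at 1.76 in low-salt and 2.21 in high-salt wild type, and pgl-1 and glh-1 followed with 1.46 and 1.06 at low salt. Above 0 were 5 of 7 genes in low-salt and 7 in high-salt wild type, 6 in either ethanol library, 5 in low-salt and 6 in high-salt prde-1, and 0 in low-salt and 3 in high-salt auxin. In wild type at low salt the order was prg-1, pgl-1, glh-1, glh-4, deps-1, glh-2 and pgl-3. In every library the intervals of all 6 neighbouring pairs overlapped, so no neighbours in the order differ beyond the spread of their own nucleosomes.

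The 2 control strains show how far a level moved between separately scaled control libraries. These also differ in strain, in exposure to ethanol and perhaps in GC correction, which cannot be told apart here. Ethanol minus wild type, on the relative log2 scale, ranged at low salt from -0.66 (pgl-1) up to 0.47 (pgl-3), and at high salt from -0.61 (glh-4) up to 0.66 (glh-1). For prg-1 it was -0.16 and 0.46. The median size of this difference over the comparison set was 0.52 between the low-salt and 0.65 between the high-salt libraries, and 2 of the 7 genes at low salt and 1 at high salt differed by more than that.

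High salt removes loosely held nucleosomes, and the relative levels of these genes were mostly greater after it. In wild type all 7 genes were higher at high than at low salt, by 0.29 (deps-1) to 0.89 (glh-4) on the relative log2 scale. In ethanol 5 of 7 were higher, by up to 1.36 for pgl-1, while glh-2 differed by -0.09 and pgl-3 by -0.32. These differences lay at the 66.1 to 83.9 percentiles of the comparison set in wild type and at the 34.9 to 91.2 percentiles in ethanol. In prde-1, 6 of 7 were higher after high salt, up to 2.21 for pgl-3, and glh-2 differed by -0.04. In auxin no value could be given for glh-1, and the others ranged from -0.16 (glh-4) to 4.50 (glh-2). All 7 genes belong to the 10% of genes with the highest GC content, whose median relative level also moved with salt. Low salt first, it was -0.10 and 0.15 in wild type, -0.43 and 0.016 in prde-1 and -1.67 and -0.74 in auxin. In ethanol it was lower after high salt (-0.20 and -0.55). The part of GC content in the salt difference was not tested.

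In prde-1 occupancy was lower over prg-1 at both salts, and over glh-1 with calls that some settings lost. The change of a gene is given as the median over its nucleosomes of log2((treated summit + 1)/(control summit + 1)), minus the same over all nucleosomes outside the clusters, and a gene is called lower or higher past 0.5. prg-1 changed by -1.21 (interval -3.26 to -0.40) at low salt, with 17 of 19 nucleosomes lower, and by -0.95 (-1.79 to -0.60) at high salt, with 16 of 20 lower. glh-1 changed by -0.77 (-1.43 to 0.31) and by -0.68 (-1.47 to -0.17). Genotype and the later harvest of prde-1 cannot be told apart, nor can a different mix of germ cell stages and a difference within each nucleus. At low salt 3 of 7 genes were lower (prg-1, glh-1 and deps-1, the last at -0.70), where 21.0% of the comparison set were, and 1 was higher (glh-4), where 18.3% were. At high salt 3 of 7 were lower (prg-1, glh-2 at -0.74 and glh-1), against 19.6% of the comparison set, and 0 were higher, against 21.8%. Both salts gave a lower call for prg-1 and glh-1, 2 of 7 genes, and for 5.57% of the comparison set, and a higher call for 0 genes and for 4.53%. The glh-1 call was lost at low salt when changes were centred on the 10% of genes with the highest GC (-0.49), and at high salt over the longer window from 1000 bp before to 500 bp after the gene (-0.19), and that of glh-2 when gene-body means were compared (-0.34).

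Of the other genes outside the cluster, 0 were called in the same direction at both salts in prde-1. glh-4 was 0.54 at low salt (interval -0.80 to 1.02) and -0.26 at high salt, and its low-salt call was lost when gene-body means were compared (0.093). deps-1 was -0.70 at low salt, with an interval of -2.26 to 1.89 and -0.20 between gene-body means, and 0.06 at high salt. Its median summit was higher in prde-1 at low salt although the median of its nucleosome-by-nucleosome ratios was lower, so these measures disagreed in sign. glh-2 was -0.03 at low salt, against the -0.74 after high salt, and pgl-3 was -0.23 and 0.19. The median over the 6 genes outside the cluster was -0.47 at both salts. Of the 10% of genes with the highest GC content, to which all 7 belong, 40.1% were lower at low salt, 25.7% after the high-salt wash and 11% at both.

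pgl-1 sat inside a piRNA cluster yet was not lower there in prde-1, as most cluster genes were. It changed by 0.11 after the low-salt wash (interval -1.35 to 0.67) and by -0.03 after the high-salt wash (-0.80 to 0.61). Of the 686 protein-coding genes inside the clusters with enough nucleosomes, 55.0% were lower at low salt, 53.2% at high salt and 37.8% at both, and the median change was -0.63 at either salt. pgl-1 lay at the 85.2 percentile of these genes at low salt and the 70.3 percentile at high salt. Its median summit was nevertheless lower in prde-1 at low salt (301 against 174), although 9 of its 17 nucleosomes were higher, of which 2 had no signal in wild type. Between gene-body means the low-salt change was -0.30, and at the point where the libraries differ most pgl-1 was lower (-9.84 and -12.85). The 100-kb window around pgl-1 holds 48 piRNA genes. If windows of at least 50 piRNA genes define the clusters, pgl-1 falls outside them.

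Auxin treatment of the degron strain went with far lower occupancy over 6 of the 7 genes, at both salts. The changes at low salt were -4.84 (interval -7.91 to -1.77) for glh-1, -1.74 (-4.06 to -1.03) for prg-1, -1.65 for pgl-3 and for glh-2, -1.54 for pgl-1 and -1.49 for glh-4. At high salt they were -2.53 (-7.68 to -0.84) for pgl-1, -2.33 (-4.72 to -0.91) for glh-1, -2.22 (-8.48 to -1.91) for prg-1, -1.75 for glh-4, -1.53 for glh-2 and -1.24 for pgl-3. The intervals of prg-1 and glh-1 lay below 0 at both salts and that of pgl-1 at high salt. deps-1 alone was called neither way, at -0.15 (-7.49 to 5.00) and 0.15 (-2.75 to 1.88). Of its 14 low-salt positions 6 had signal only with ethanol and 6 only with auxin. Its low-salt median summit was nevertheless lower with auxin (10.0 against 88.7), so these measures disagreed in size. Of the comparison set 32.7% were lower at low salt, 23.1% at high salt and 10.7% at both, and 15.7%, 28.4% and 6.00% were higher, where 0 of the 7 genes were. Of the genes inside the piRNA clusters, where pgl-1 lies, 33.5%, 47.5% and 17.8% were lower, and pgl-1 was at their 9.5 and 1.8 percentiles at low and high salt.

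The calls of prg-1, glh-1, pgl-1 and glh-2 with auxin held under every other way of computing the change. Sizes held less well: the low-salt change of glh-1, where 9 of 19 positions were at 0 only with auxin, ranged from -5.67 to -2.46. Over the longer window pgl-3 was 0.032 at low salt and glh-4 was -0.40 at high salt, and with a pseudocount of 10 pgl-3 was -0.42 at high salt. Centred on the 10% of genes with the highest GC, glh-4 was -0.49 at low salt, which leaves 5 of 7 genes lower there, and deps-1 was 0.86. deps-1 was lower at low salt between gene-body means (-0.89), over the longer window (-0.63), among nucleosomes with a mean summit of at least 50 (-6.76) and at the point where the libraries differ most (-2.13). At high salt deps-1 was lower over the longer window (-0.78) but higher at that point (1.69).

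**Figure D2:**
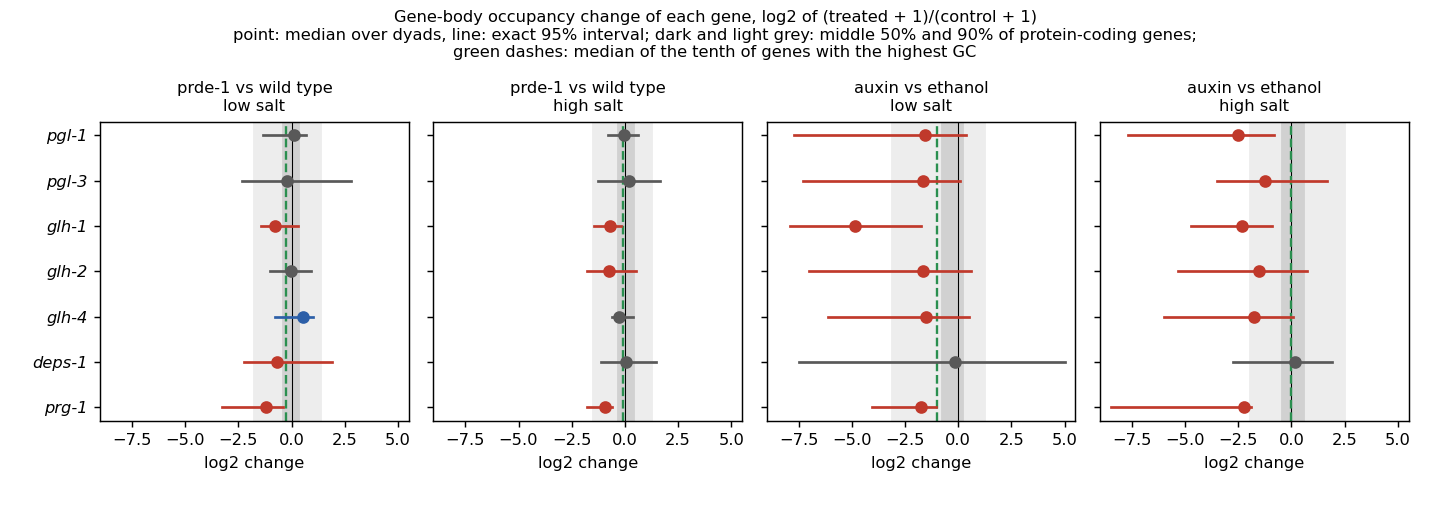
Change in gene-body occupancy (x axis, log2 of treated + 1 over control + 1) of the 7 genes (y axis) in the 4 comparisons; points are medians over nucleosomes, lines their exact 95% intervals, grey bands the spread of the comparison set and green dashes the median of the 10% of genes with the highest GC content. With auxin 6 of 7 genes lie below -0.5 at both salts, and in prde-1 only prg-1 and glh-1 do.

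The germ granule genes are rich in G and C, and this moved with the auxin difference. Their gene bodies have 42.7% (deps-1) to 45.4% (glh-1) GC, against a median of 36.1% in the comparison set, which puts all 7 in its top 10% (from 41.3%). Over those 1532 genes the median change with auxin was -1.01 at low salt and 64.6% of genes were lower, while in the 10% with the lowest GC the median was 0.095 and 12.8% were lower. At high salt the 10% with the highest GC had a median of -0.03, and 39.2% of them were lower. Both salts gave a lower call for 28.0% of them and for 6 of the 7 germ granule genes. Set against these GC-rich genes, the medians of the 6 genes outside the cluster were -0.64 at low salt, in place of -1.65, and -1.61 at high salt, in place of -1.64. Only the prde-1 tables carry GC correction in their names, and whether those of the degron strain were corrected is uncertain. The part of GC content in the difference was not tested.

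**Figure D3:**
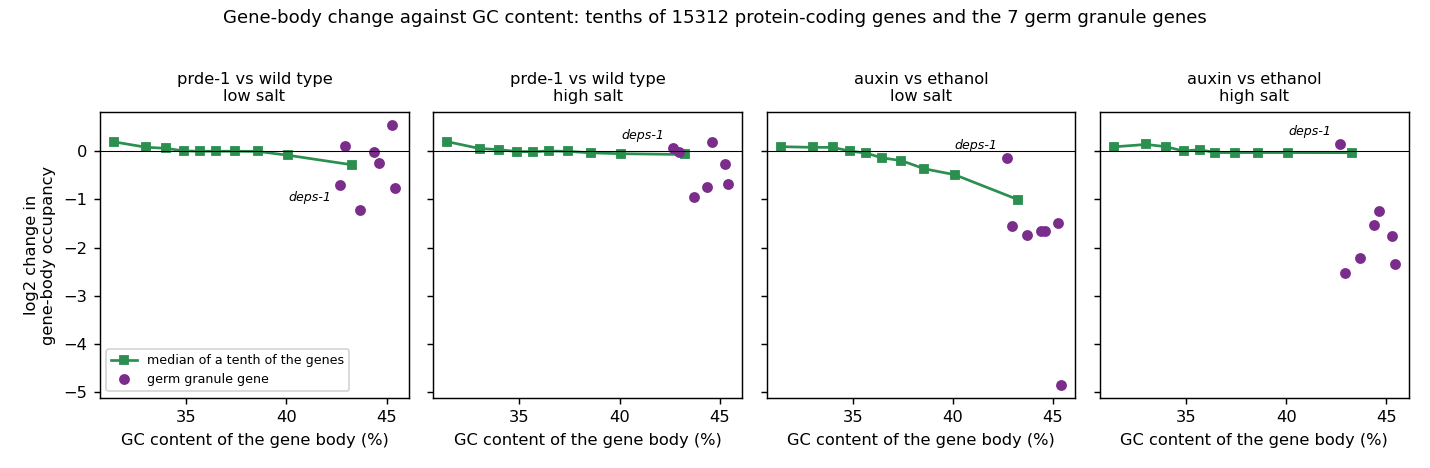
Gene-body change (y axis, log2) against GC content of the gene body (x axis, %) in the 4 comparisons; green squares are medians of 10 equal GC bins of the comparison set and purple points the 7 germ granule genes, with deps-1 named. The green line falls to -1.01 with auxin at low salt and stays near 0 at high salt, where 6 of 7 germ granule genes lie between -2.53 and -1.24.

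With auxin the medians of all 3 equal parts of the gene body were lower at both salts in prg-1 and glh-1, after the low-salt wash also in pgl-3, and after the high-salt wash also in pgl-1 and glh-4. At low salt the first part was higher with auxin in pgl-1 (160 against 112) and glh-2 (71.5 against 27.6), as was the last part of glh-4 (134 against 115.5). At high salt the first part was higher in glh-2 (53.4 against 38.9) and pgl-3 (80.1 against 53.2). In deps-1 the middle part was higher with auxin at low salt (160 against 121) and at high salt (87.2 against 51.4). Its last part was also higher at low salt (10.0 against 0), and its first part differed little at high salt (162.3 against 161.6). All 20 nucleosomes of prg-1 were lower at high salt, 6 of them at 0, and 16 of 17 were lower at low salt. The prg-1 nucleosomes 52, 216 and 352 bp after the start had summits of 368, 662 and 437 with ethanol and 0 with auxin at high salt. In glh-1, 18 of 19 nucleosomes were lower at high salt and 17 of 19 at low salt. Its first nucleosomes kept much of their signal, with 419 against 242 at 82 bp and 331 against 275 at 300 bp, while the strongest one, at 1134 bp, went from 1009 to 335. pgl-1 had 16 of 18 nucleosomes lower at high salt, the exceptions lying 2624 and 2721 bp after the start. Over the 7 genes 73.0% of gene-body nucleosomes (84) were lower at low salt and 75.8% (100 of 132) at high salt, beside 52.8% and 46.1% of those in the comparison set. Signal seen with ethanol but not with auxin was recorded at 44 positions (38.3%) in the low-salt and 38 (28.8%) in the high-salt libraries, beside 21.9% and 18.9% in the comparison set, and the reverse at 9 and 10 positions. Within 500 bp of the start the shares of lower nucleosomes were 61.9% and 71.4%, beside 53.4% and 48.1%, and beyond it 75.5% and 76.6%, beside 52.7% and 45.8%. In prde-1 the shares over whole gene bodies were 56.8% at low salt and 60.5% at high salt, beside 47.3% and 45.8%. Shares of nucleosomes were not computed for the 10% of genes with the highest GC content, to which all 7 genes belong.

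**Figure D4:**
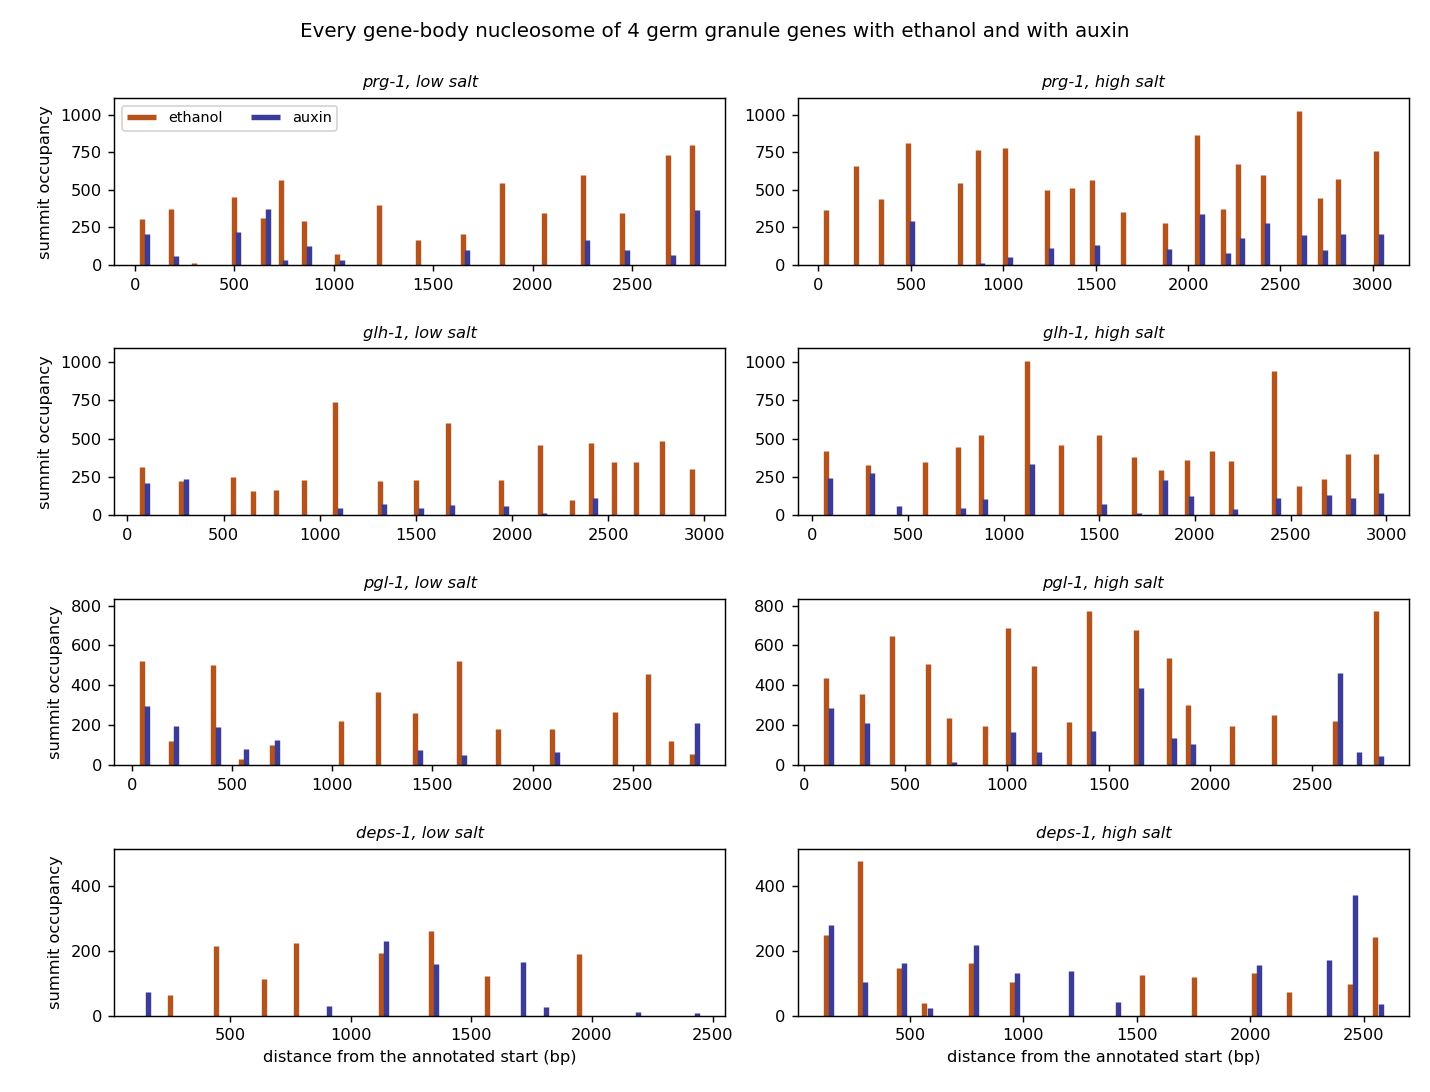
Summit occupancy (y axis) of every listed gene-body nucleosome of prg-1, glh-1, pgl-1 and deps-1 by distance from the annotated start (x axis, bp), with ethanol in orange and auxin in blue, with low salt on the left and high salt on the right. The ethanol bars stand above the auxin bars along prg-1, in 20 of 20 positions at high salt, while in deps-1 neither set stands above the other.

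Sequence flanking the genes did not move as one. In the 1000 bp before the start, the median summit of pgl-3 was 312 with ethanol and 318 with auxin after the low-salt wash and 409 and 191 after the high-salt wash. This stretch also holds the end of the upstream gene hil-4, and at low salt it differed little between ethanol and auxin while the gene body differed. For pgl-1, whose start is 189 bp from that of the divergent gene him-3, the low-salt upstream medians were 179 with ethanol and 1.76 with auxin, and the high-salt ones 104 and 61.3. The low-salt medians rest on 4 positions, and a dyad 515 bp upstream had a summit of 325 with auxin. For glh-4, which has no protein-coding neighbour within 5869 bp upstream, the medians were 183 and 102 in the low-salt libraries and 71.5 and 212 in the high-salt ones, where auxin was thus the higher. In the same order prg-1 had 177 and 54.8, then 182 and 15.1, and glh-1 had 103 and 81.7, then 71.1 and 30.2. Upstream of deps-1 they were 67.2 and 115.6, then 153 and 34.2. For glh-2 all were low, at 39.6 and 0, then 6.02 and 8.22.

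Fuzziness, the DANPOS score for how widely a nucleosome's signal is spread around its dyad, was highest over prg-1 and pgl-1 in wild type. In wild type at low salt the median score was 52.8 for prg-1, 48.96 for pgl-1 and 44.7 for glh-1, against 40.9 for the comparison set. The other genes had 39.5 (glh-4) to 40.4 (deps-1). At high salt all 7 genes scored above the comparison set in wild type, by 3.20 (pgl-3) to 13.94 (prg-1), and in prde-1, by 1.40 (deps-1) to 10.77 (prg-1). At low salt prg-1 scored 52.8 in wild type and 41.0 in prde-1, and 50.0 with ethanol and 34.1 with auxin. The glh-1 score of 58.2 with auxin at low salt and the pgl-1 score of 58.2 with auxin at high salt equal the most frequent score of the tables, where 7.29% and 5.45% of all nucleosomes of those libraries have it, and should not be read as a measured spread. Among nucleosomes with a summit of at least 50 the median difference of the 6 genes outside the cluster from the comparison set turned from -0.64 to 5.30 in low-salt wild type, so fuzziness depended on which positions were counted.

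At the starts, some genes had a nucleosome at a similar place in every library. In glh-2 the first nucleosome after the start had its dyad 37 to 73 bp downstream in all 8 libraries, and it was the strongest of the whole gene body in each. Its summit was 475 in low-salt and 902 in high-salt wild type and 918 and 940 in prde-1. The low-salt libraries had 620 with ethanol and 377 with auxin, and the high-salt ones 1543 and 715. glh-1 had its first dyad 64 to 107 bp downstream in all 8, with summits of 208 to 724, and pgl-1 had its first dyad 57 to 125 bp downstream in all 8, with summits of 287 to 961. In the comparison set the median place of the first dyad within 200 bp was 78 to 87 bp downstream. How many of its genes keep a first dyad within such a range in all 8 libraries was not counted. The first dyads of glh-2, glh-1 and pgl-1 were thus seen with auxin too, although at lower summits than with ethanol.

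In deps-1 the nucleosome seen in every library lay before the start. Its dyad was 39 to 89 bp upstream in all 8 libraries, between deps-1 and the divergent gene Y65B4BL.4, and was the strongest from 200 bp before to 500 bp after the start in all but auxin at high salt. Its summit was 971 in low-salt and 763 in high-salt wild type and 666 and 669 in prde-1. It was 682 with ethanol and 204 with auxin in the low-salt libraries, and 1219 and 64.4 in the high-salt ones. This nucleosome was therefore lower with auxin at both salts, whereas the median over the gene body was not called. At the start of glh-4 the upstream nucleosome was stronger with auxin, at 416 against 153 in the low-salt and 634 against 290 in the high-salt libraries, 29 to 62 bp before the start. pgl-3 also had a dyad within 200 bp upstream in 7 of 8 libraries, with summits of 302 to 624, and lacked it only with auxin at high salt. In that library a dyad lay 29 bp after the start instead (summit 171).

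The start of prg-1 had fewer listed nucleosomes with auxin at high salt. With ethanol its nearest upstream dyad was 161 bp upstream at low salt (summit 193) and 148 bp upstream at high salt (867), and neither auxin library had a dyad with signal within 200 bp upstream. With auxin at low salt prg-1 had a dyad 6 bp after the start (summit 204), and the nearest upstream dyad lay 354 bp away (67.2). At high salt the nearest upstream dyad lay 204 bp away (355), just outside this window. At high salt with auxin no dyad with signal was listed from 200 bp before to 500 bp after the start, and the widest gap between neighbouring dyads was 707 bp, against 209 bp with ethanol. In wild type and prde-1 the widest gaps of prg-1 were 191 to 245 bp. Over the 7 genes, pgl-1 included, the median widest gap was 214 to 301 bp across libraries and that of the comparison set 256 to 284 bp. A dyad within 200 bp upstream was found for 4 of 7 genes in each auxin library and for 5 to 7 in the others, beside 75.3% to 81.1% of the comparison set. These counts depend on the limit of 200 bp, and on which side of the annotated start a dyad falls, as for pgl-3 and prg-1 with auxin. Besides prg-1, glh-2 with auxin had a dyad 261 bp upstream at low salt (summit 82.6) and 227 bp upstream at high salt (125). Likewise pgl-1 had one 282 bp upstream in high-salt prde-1 (91.5).

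**Figure D5:**
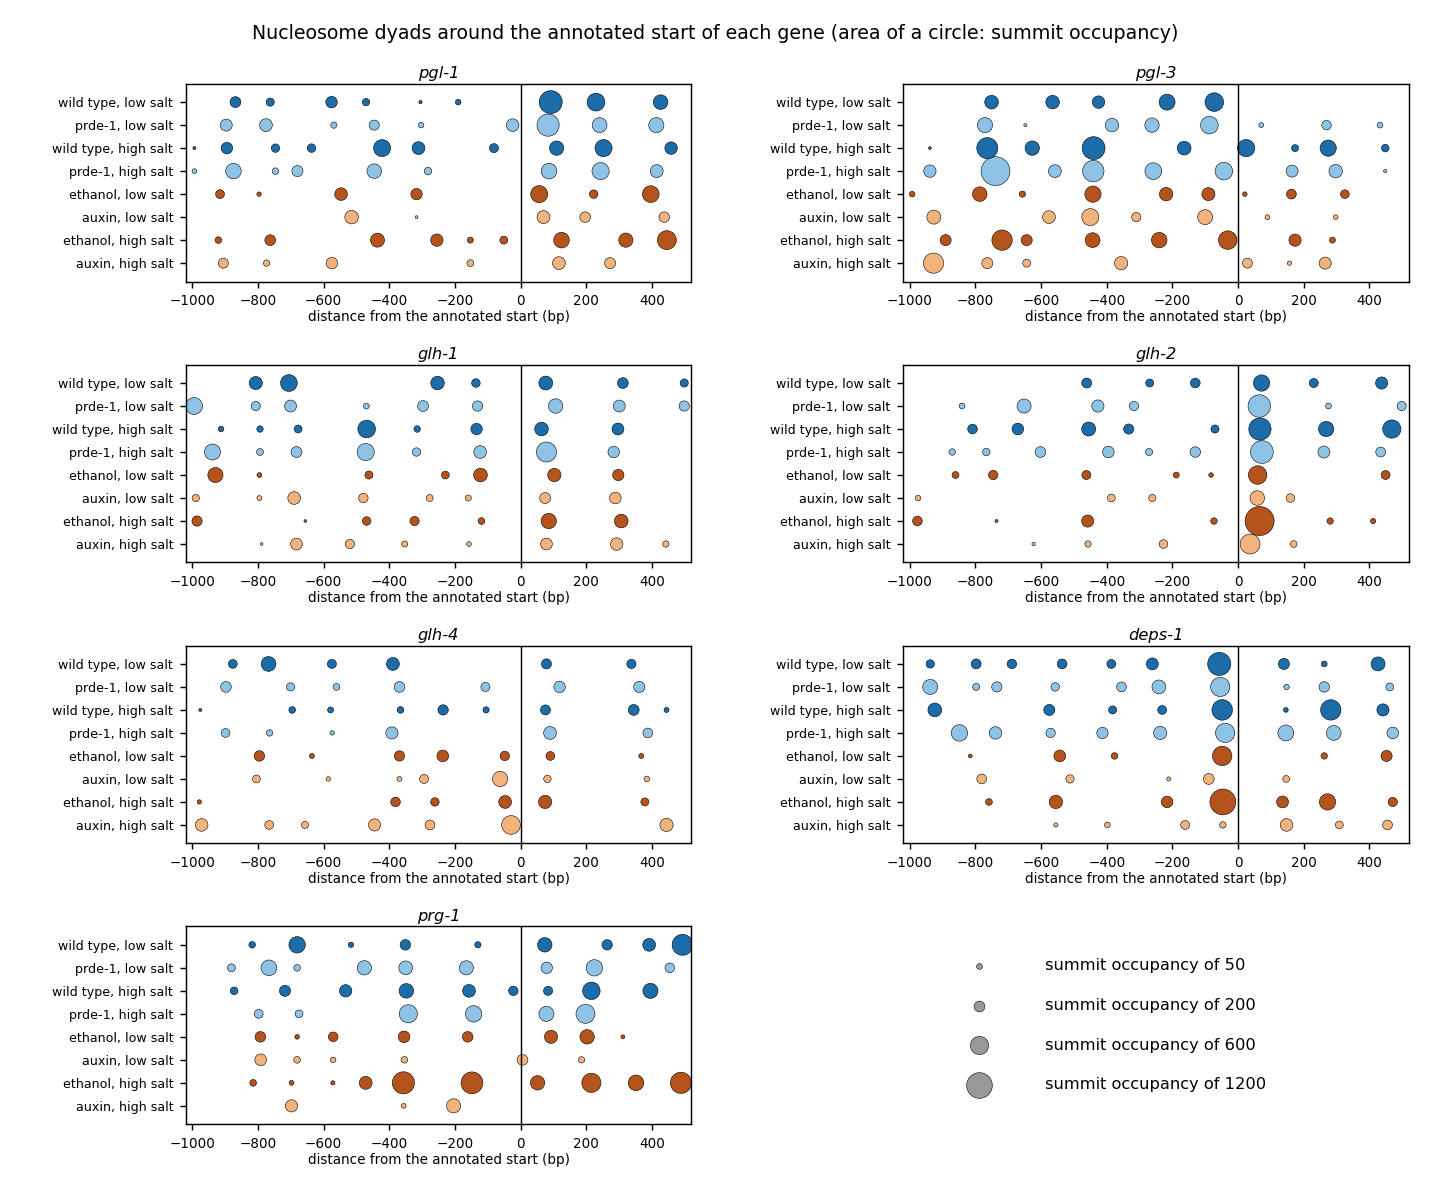
Nucleosome dyads with signal around the annotated start of each gene, by distance from the start (x axis, bp, negative upstream) in the 8 libraries (rows); the area of a circle is the summit occupancy. glh-2 shows its strong first dyad 37 to 73 bp downstream and deps-1 a dyad 39 to 89 bp upstream in every row, and the prg-1 row for auxin at high salt is empty from 200 bp upstream to 500 bp downstream.

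Dyads of these genes and of others were displaced between the libraries of each comparison. Over gene-body positions with signal in both libraries, the median distance between control and treated dyads over the 6 genes outside the cluster was 31.0 bp for prde-1 at low salt and 19.5 bp at high salt, and 22.8 bp and 21.8 bp for auxin. The comparison set had medians of 21.5, 23, 24 and 27 bp, with quartiles of 15 and 31 bp for prde-1 at low salt, above which prg-1 (35 bp), glh-1 (34 bp) and deps-1 (33 bp) lay. prg-1 shifted by 13 bp with auxin at low salt, below the lower quartile of 17 bp. Single genes lay between 11.5 bp (pgl-3, prde-1 at high salt) and 36 bp (deps-1, auxin at high salt).

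Genes of the other germ granule compartments and of piRNA processing were counted in the same way. Of 53 such genes in 6 lists, 52 were found in the annotation and 49 had enough nucleosomes, with 17 of the 49 in the 10% of genes with the highest GC. With auxin 26 of 49 were lower at low salt, 31 at high salt and 21 at both, and 2 were higher at either salt, 0 at both. Lower calls were made for 32.7%, 23.1% and 10.7% of the comparison set and for 64.6%, 39.2% and 28.0% of its GC-rich 10%, against which the counts of each list are to be read. All 6 Z granule genes were lower at both salts, among them lotr-1, whose protein holds LOTUS and Tudor domains (-2.79 and -1.52), and the Argonaute gene wago-4 (-1.32 and -1.33). Of the other P granule genes 8 of 17 were lower at both, among them wago-1 (-5.33 and -3.41), csr-1 (-2.24 and -1.91), both Argonaute genes, and car-1 (-2.20 and -1.97), an RNA-binding protein of germline RNP granules. The Mutator foci, where small RNAs are amplified, had 3 of 11 genes lower at both (mut-15, rde-2 and nyn-2), the SIMR foci 1 of 4 (simr-1), the embryonic MEG genes 1 of 4 (meg-4) and the piRNA processing genes 2 of 7 (ife-3 and tofu-1). The median GC content was 41.3% for the Z granule genes, 40.2% for the other P granule genes and 36.3% for the Mutator genes.

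Genes known for their use in somatic tissues were set beside them. Of 18 muscle, neuron, gut and skin genes with enough nucleosomes, with a median GC content of 40.3%, 4 were lower with auxin at low salt, 1 at high salt and 1 at both (bli-1, -5.77 and -0.51), and 6 were higher at high salt. Their median relative occupancy was -0.72 in low-salt wild type and -0.33 in low-salt ethanol, below the 0.26 and 0.30 of the 7 germ granule genes with pgl-1 included. In high-salt ethanol the somatic genes had -1.23 against 0.55, and some of their median summits were at or near 0. A gene at 0 cannot be called lower, and some of the higher calls at high salt started from there, so the counts are not like for like. In prde-1, 2 of the 49 germline genes were lower at both salts (mip-2 and glh-3) and 2 were higher at both (lotr-1 and tofu-6), which is near the 5.57% and 4.53% of the comparison set. Of the 18 somatic genes 1 was lower at both (myo-1, -4.05 and -1.02).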

How the data were processed

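Native H3 ChIP-seq of germ nuclei was analysed from the tables the authors deposited. Alignment was to ce11 (Bowtie2, mapping quality of at least 30) and duplicates were dropped. Both replicates of a group were brought to equal depth and pooled, fragments of 140 to 200 bp were retained, and DANPOS3 called nucleosomes and set each pair of libraries side by side, subtracting input. The deposited summit and point occupancies are a signal, H3 minus input, never below 0 and scaled by the authors to the same total per library. The deposited fuzziness score is the authors' spread around a dyad, and deposited positions are in bp, here counted from 1. The columns of the authors' own log2 fold changes, p-values and FDR were not used. GC correction is named only for the prde-1 and wild type tables. The other samples of the series were not used here, and input entered only through the subtraction. Read depth is unknown.

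Genes came from Ensembl 115 (WBcel235), and sequence from the RefSeq copy of that assembly. For the piRNA clusters, chromosome IV was divided into 100-kb windows, those holding 20 or more piRNA genes were joined, merged over gaps up to 300 kb and kept from 1 Mb (IV:4800001-7000000 and IV:13500001-17300000). A gene-body change was the median over nucleosomes of log2((treated + 1)/(control + 1)), centred on all nucleosomes outside the clusters, which understates changes of low values. The size of a drop to 0 depends on the 1 that is added. A gene needed 5 gene-body nucleosomes in every table. The median over all nucleosomes outside the clusters before centring was 0 to 0.05 in prde-1 and -0.08 and 0.03 with auxin. No test was made, since each group is 1 merged library and nucleosomes are not replicates. The scripts were tested on simulated data with known changes. With the low control values kept, only the direction of a change was required to be recovered. Its size was required only after those values had been replaced, so the test does not cover the size of changes among many values of 0. Median summits and changes are given for all 7 genes, and a gene of another list is named only if it passed 0.5 in the same direction at both salts in 1 treatment. The members and lists were chosen with earlier results of these data known. Python 3.11.15, numpy 2.4.6, pandas 2.3.3, scipy 1.17.1 and matplotlib 3.10.9 were used.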

Additional observations from a re-analysis of the deposited data

How the results depend on the processing

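No paired analysis was possible because the replicates of each group were merged before nucleosomes were called, and for the same reason no replicate could be left out. Under the other settings listed for the changes, levels, fuzziness, shifts and starts, 170 recomputed values for the group stayed within the range of the single genes (counts within 1.5 times) and 19 did not. Point occupancy, read where the 2 libraries differ most, moved the median change of the 6 genes outside the cluster to -7.22 (prde-1, low salt), -10.92 (prde-1, high salt) and -12.98 (auxin, high salt). It gave 5 genes lower at either salt and 1 higher at high salt in prde-1, and 1 higher with auxin at high salt. It also moved the median relative occupancy to 2.64 (wild type) and 4.37 (ethanol) at high salt and the number of genes above the comparison set to 3 in low-salt prde-1, 2 in high-salt prde-1 and 1 with auxin at high salt. In prde-1 at both salts and in auxin at high salt the median point occupancy was 0, so no log value could be given, as for glh-1 with auxin at low salt, whose median summit was 0. The 1 gene higher in prde-1 at low salt became 0 with gene-body means, with nucleosomes of a mean summit of at least 50, and with the longer window. With auxin at high salt the 3 genes above the comparison set became 0 with means and with the longer window, which also moved the shift with auxin at low salt to 30.5 bp. Windows of at least 50 piRNA genes left 0 genes inside the clusters.

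Single values of at least 0.5 in size that changed sign were glh-4 in prde-1 at low salt (-0.11, point occupancy), pgl-3 with auxin at low salt (0.032, longer window), the relative occupancies of pgl-3 in prde-1 at low salt (0.25, longer window), deps-1 in wild type at high salt (-1.30, point occupancy), prg-1 in prde-1 at high salt (-2.91, point occupancy) and pgl-1 with auxin at high salt (0.0016, positions with signal). Smaller ones changed sign too, among them the low-salt changes of pgl-1 and glh-2 in prde-1 and the high-salt change of deps-1 with auxin. Setting the genes against the 10% of genes with the highest GC, chosen after seeing the data, left 1 gene (prg-1) lower in low-salt prde-1 and 1 higher with auxin at low salt (deps-1, 0.86). It moved the median relative occupancy to 1.00 in prde-1 at low salt and to 0.23 with auxin at high salt, put 3 genes above those GC-rich genes with auxin at low salt, and turned pgl-1 (1.03 and 0.19 with auxin at low and high salt) and glh-4 (0.47 with auxin at low salt). In 4 of the 8 libraries the median fuzziness relative to the comparison set changed sign with a summit minimum of 50, as in wild type at low salt (-0.64 to 5.30). The cause of these moves was not tested.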
